A study of Mus musculus with 6 samples.

Results

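The 182 genes described here are the mouse protein-coding genes named Zfp with a number of 600 or higher and below 1000. They were chosen by symbol alone, out of 21440 protein-coding genes of chromosomes 1 to 19, X and Y whose 5′ end was known. A member was called clustered when another member lay within 200 kb, which held for 116 genes in 30 clusters, and single otherwise, which held for 66. The assay was ATAC-seq, in which a transposase inserts adapters into open DNA, in 6 libraries of 50000 Pnd 5 (postnatal day 5) spermatogonia each. Spermatogonia are the mitotic germ cells of the testis. There were 3 libraries from S7KO (Sirt7-/-) mice, which lack the deacetylase SIRT7, and 3 from WT mice, all male and of a single inbred background, which per the study's methods was not that of the reference genome. Cells were enriched by plating, not sorted. The libraries were biological replicates per the study's methods, and how many animals went into each is not given in the sources used here.

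Most of these genes encode C2H2 zinc finger proteins, in which an array of fingers reads a DNA sequence. Many also carry a KRAB domain, which recruits the corepressor TRIM28 (KAP1) and with it the histone methyltransferase SETDB1, HP1 proteins and other silencing factors. KRAB zinc finger genes have multiplied by tandem duplication, and many of their proteins bind and silence transposable elements, which is of particular weight in the germline. Neighbouring copies can be so alike that a short read cannot be placed in one of them.

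The protein patterns followed that picture. In the longest open reading frame of the GENCODE transcripts, read for 177 members, the median was 11 matches to the zinc finger pattern (C, 2 to 4 residues, C, 12 residues, H, 3 to 5 residues, H). A KRAB A-box pattern was found in 67 of 114 clustered members (58.8%) and in 9 of 63 single ones (14.3%). The pattern is strict, so a gene without a match may still hold a KRAB domain.

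Promoter sequences of 6 members are shown because they span the family, from a promoter unlike that of any other member to near copies that were open and near copies without a peak. Each runs 5′ to 3′ on the gene's strand from 250 bases before to 50 after a start listed by RefSeq (GRCm38.p6), with every CG in capitals. A CG stood in all 158 member promoters listed and in 94.8% of the listed promoters of all protein-coding genes.
Zfp809, chr9:22225453-22225752, plus strand: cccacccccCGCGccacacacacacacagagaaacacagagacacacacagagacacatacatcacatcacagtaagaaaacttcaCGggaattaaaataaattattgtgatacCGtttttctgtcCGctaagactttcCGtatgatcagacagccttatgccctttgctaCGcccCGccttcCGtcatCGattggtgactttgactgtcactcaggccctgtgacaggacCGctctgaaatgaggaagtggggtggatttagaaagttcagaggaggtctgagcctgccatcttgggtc
Zfp758, chr17:22361213-22361512, plus strand: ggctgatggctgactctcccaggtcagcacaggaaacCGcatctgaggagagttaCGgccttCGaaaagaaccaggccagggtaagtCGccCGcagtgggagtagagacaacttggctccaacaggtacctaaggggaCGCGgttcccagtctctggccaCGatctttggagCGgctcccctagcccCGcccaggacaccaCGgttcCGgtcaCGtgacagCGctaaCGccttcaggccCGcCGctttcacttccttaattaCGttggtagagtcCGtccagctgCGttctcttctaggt
Zfp943, chr17:21962309-21962608, plus strand: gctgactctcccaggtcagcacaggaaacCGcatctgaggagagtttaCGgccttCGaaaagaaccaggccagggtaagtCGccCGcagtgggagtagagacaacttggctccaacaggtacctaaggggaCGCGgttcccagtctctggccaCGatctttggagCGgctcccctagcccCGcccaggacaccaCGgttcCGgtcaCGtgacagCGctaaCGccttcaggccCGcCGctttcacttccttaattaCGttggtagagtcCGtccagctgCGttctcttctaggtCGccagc
Zfp600, chr4:146156577-146156876, plus strand: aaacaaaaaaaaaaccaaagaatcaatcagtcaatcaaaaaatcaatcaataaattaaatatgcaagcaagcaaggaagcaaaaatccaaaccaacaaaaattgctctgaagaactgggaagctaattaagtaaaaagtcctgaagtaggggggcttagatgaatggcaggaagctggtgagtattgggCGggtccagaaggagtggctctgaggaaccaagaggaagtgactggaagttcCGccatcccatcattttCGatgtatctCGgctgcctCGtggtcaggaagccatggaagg
Zfp979, chr4:147642459-147642758, minus strand: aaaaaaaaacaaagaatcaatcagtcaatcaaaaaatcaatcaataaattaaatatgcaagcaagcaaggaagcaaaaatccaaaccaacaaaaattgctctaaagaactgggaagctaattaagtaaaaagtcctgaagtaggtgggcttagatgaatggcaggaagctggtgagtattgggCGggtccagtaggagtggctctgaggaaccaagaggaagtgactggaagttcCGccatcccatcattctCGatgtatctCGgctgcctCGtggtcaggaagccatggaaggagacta
Zfp967, chr2:176520754-176521053, plus strand: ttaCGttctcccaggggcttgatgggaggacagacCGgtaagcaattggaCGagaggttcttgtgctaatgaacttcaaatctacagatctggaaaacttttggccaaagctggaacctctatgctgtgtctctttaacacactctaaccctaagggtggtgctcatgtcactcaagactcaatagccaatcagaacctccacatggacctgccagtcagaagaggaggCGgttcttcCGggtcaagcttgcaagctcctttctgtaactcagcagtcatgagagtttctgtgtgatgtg
Zfp809 is a KRAB zinc finger protein known for silencing murine leukaemia virus-type retroviruses, and its promoter was at most 50.3% identical to that of any other member. The promoters of Zfp758 and Zfp943 were 94.7% identical, as were those of Zfp600 and Zfp979, and that of Zfp967 was 100% identical to that of Zfp966. The promoters of Zfp809, Zfp758 and Zfp943 held 11, 20 and 21 CG and had a peak in all 6 libraries. Those of Zfp600, Zfp979 and Zfp967 held 5 each and had a peak in none. Around the 5′ ends of these genes only 15.8, 17.8 and 0% of 50-base stretches, in that order, occur once in the genome.

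The lists held 119786, 127985 and 133299 peaks on these chromosomes in S7KO replicates 1, 2 and 4, and 118881, 105728 and 133663 in WT replicates 1, 2 and 4. WT replicate 2 had the fewest. The lists give no read depth. The cell label was checked with marker genes: a 5′ peak was listed in all 6 libraries for 8 of 8 spermatogonia markers, but also for 5 of 5 Sertoli cell markers, 2 of 2 myoid markers, 2 of 5 Leydig cell markers and 1 of 3 macrophage markers. Promoter peaks thus did not tell the cell types apart, and the share of somatic cells was not measured from these lists. Per the study, flow cytometry for the spermatogonia marker PLZF found it in most of the isolated cells. The supplementary figure that shows this is of WT cells. Sirt7 itself had a peak at both ends in all 6 libraries, which does not check its deletion.

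The first question was how many of these genes had accessible ends. A 5′ peak means here a listed peak overlapping the 1 kb on either side of the gene's 5′ end. A 5′ peak was present in all 6 libraries at 130 of 182 members (71.4%, against a background of 68.2% over all protein-coding genes). It was absent from all 6 at 44 (24.2%, background 27.7%) and present in some at 8 (4.40%, background 4.16%). The members were thus close to the average gene. The 212 protein-coding genes named Zfp with a number below 600 had a 5′ peak in all 6 libraries more often, at 187 (88.2%).

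Single libraries differed little. In S7KO replicates 1, 2 and 4 the members with a 5′ peak numbered 135, 134 and 136, and in the WT libraries 134, 133 and 136, in the same order. S7KO libraries had a share of 74.2% ± 0.549 and WT libraries one of 73.8% ± 0.839 (3 libraries each, ± SD), with overlapping groups (exact two-sided permutation test, p = 0.8, adjusted p = 0.933 over 7 tests). With 3 libraries a group that test cannot go below 0.1. No member had a 5′ peak in all 3 S7KO libraries and no WT library (0 of 182, background 0.0326%) or the reverse (0 of 182, background 0%). The same 2 counts were 0 at the 3′ end, where the backgrounds were 0.112% and 0.00933%.

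Clustered members had a 5′ peak less often than single ones. The peak was present in all 6 libraries at 77 of 116 clustered members (66.4%, 95% Wilson interval 57.4 to 74.3) and at 53 of 66 single members (80.3%, 69.2 to 88.1). The intervals cover counting error only and overlap. The gap between clustered and single was -12.0, -12.9 and -13.5 percentage points in S7KO replicates 1, 2 and 4 and -10.5, -11.3 and -15.9 in WT replicates 1, 2 and 4. Genes are not replicates, so the gap itself was not tested. Its size did not separate the genotypes (S7KO -12.8 ± 0.760 points, WT -12.6 ± 2.91, n = 3 each, exact permutation p = 1, adjusted p = 1).

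**Figure D1:**
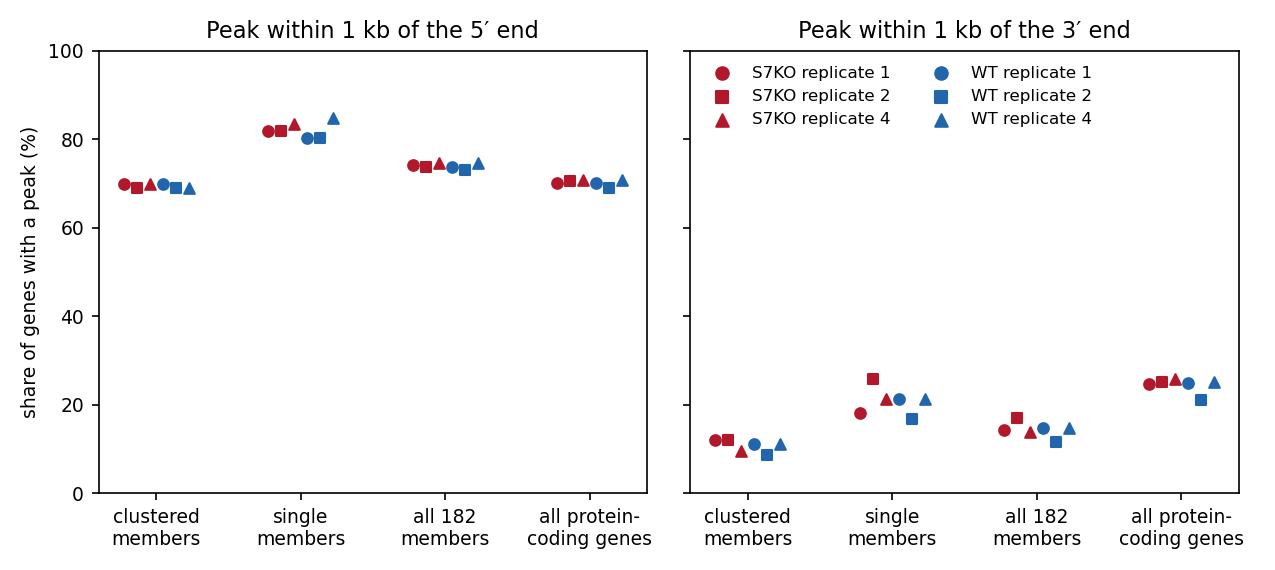
Share of genes, in %, with a listed peak within 1 kb of the 5′ end (left) and of the 3′ end (right), for clustered members, single members, all 182 members and all protein-coding genes. Each point is 1 library, coloured by genotype and shaped by replicate number; at the 5′ end clustered members sit between 69.0% and 69.8% and single members between 80.3% and 84.8%, with S7KO and WT points interleaved.

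Members without a 5′ peak were concentrated in a pair of blocks. On chromosome 2, all 9 members between 175372034 and 178078425 (Zfp968, Zfp965, Zfp966, Zfp967, Zfp973, Zfp970, Zfp972, Zfp971 and Zfp931) lacked one in every library. The nearest peak to the 5′ end of Zfp967 in any library was 1577346 bp away. On chromosome 4, the 15 members between 145510759 and 147849126 included 13 with no 5′ peak, Zfp600 and Zfp979 among them. There Zfp933, at the edge of the block, was the member open in all 6 libraries, with widths of 983, 1175 and 1111 bp in S7KO replicates 1, 2 and 4 and of 1184, 1110 and 1101 bp in WT replicates 1, 2 and 4. In the same cluster Zfp978 had a peak of 200 to 242 bp in 5 libraries. The cluster of 11 members that ends at Zfp933 held 5.00 to 9.29 peaks per Mb, against 39.9 to 50.5 per Mb over the genome.

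Other large clusters were open. The largest, 13 members on chromosome 17 from Zfp677 to Zfp946, had a 5′ peak in all 6 libraries at 11 and in none at Zfp947 and Zfp994. In it Zfp942 and Zfp943, and likewise Zfp944 and Zfp758, start back to back and share 1 peak, so each pair is 1 measurement. The peak of Zfp942 and Zfp943 was 1215, 2561 and 1774 bp wide in S7KO replicates 1, 2 and 4 and 2868, 877 and 934 bp in WT replicates 1, 2 and 4, with wide and narrow values in both genotypes. Judged at the outermost 5′ end, the cluster of 10 on chromosome 13 had 5 open members (Zfp712, Zfp953, Zfp874a, Zfp748 and Zfp729a). By the same measure 2 were open in some libraries (Zfp874b and Zfp738) and 3 in none (Zfp708, Zfp759 and Zfp729b). All 7 members from Zfp771 to Zfp629 and all 6 from Zfp607b to Zfp850 on chromosome 7, all 6 from Zfp871 to Zfp763 on chromosome 17 and all 5 from Zfp868 to Zfp866 on chromosome 8 were open in every library.

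**Figure D2:**
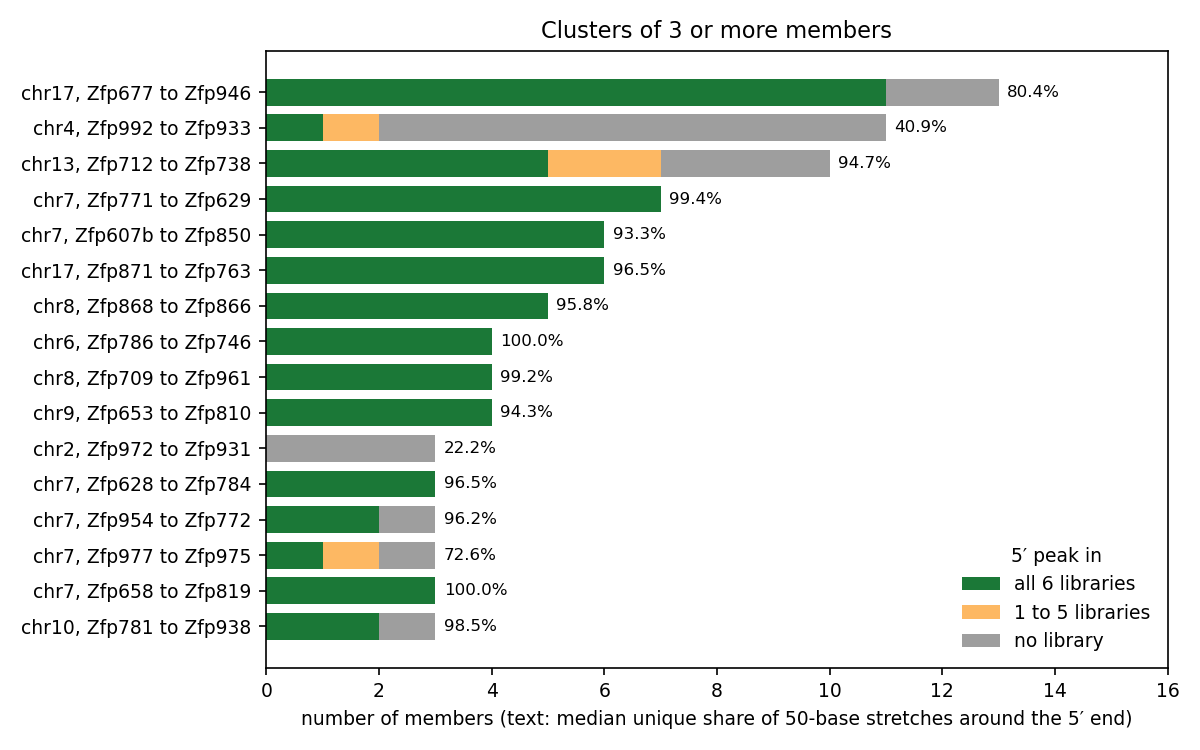
Number of members with a 5′ peak in all 6, in 1 to 5 and in no library, for the 16 clusters of 3 or more members, each named by its chromosome and its first and last member. The percentage beside a bar is the median over its members of the share of 50-base stretches around the 5′ end that occur once in the genome; it was 22.2% for the chromosome 2 cluster, in which no member had a peak, and 40.9% for the cluster of 11 on chromosome 4.

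Sequence uniqueness moved with these counts. The authors kept uniquely mapped reads, so a window made of repeated sequence can gather few. For 179 members the 50-base stretches within 1 kb of the 5′ end were compared with the whole GRCm39 genome. A median of 99.0% of them occurred once at members with a peak in all 6 libraries, and 43.1% at members with none. Of the 24 members with under 50% unique stretches, 0 had a 5′ peak in all 6 libraries and 23 had none, and over all protein-coding genes that class had a peak in all 6 libraries at 34 of 1074 (3.17%). In the middle class (50 to under 90%) the count was 22 of 36 (61.1%), against 38.7% of all genes. With 90% or more it was 106 of 119 (89.1%), against 79.5% of all genes. The median unique share was 96.7% over the members and 99.9% over the Zfp genes below 600. The higher share of 5′ peaks at the latter was not split by uniqueness. At repeated 5′ ends closed chromatin and a lack of placeable reads cannot be told apart.

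The gap between clustered and single members turned in the class with 90% or more unique stretches, but not in the middle class. Of the members with 90% or more unique stretches, 61 of 67 clustered (91.0%, 95% Wilson interval 81.8 to 95.8) and 45 of 52 single ones (86.5%, 74.7 to 93.3) had a 5′ peak in all 6 libraries. The mean gap over the 6 libraries was then 5.11 points, with clustered members higher, in place of -12.7 over all members. The intervals overlap widely. In the middle class 15 of 27 clustered (55.6%) and 7 of 9 single members (77.8%) had a 5′ peak in all 6 libraries. Of the 24 members under 50%, 20 were clustered.

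**Figure D3:**
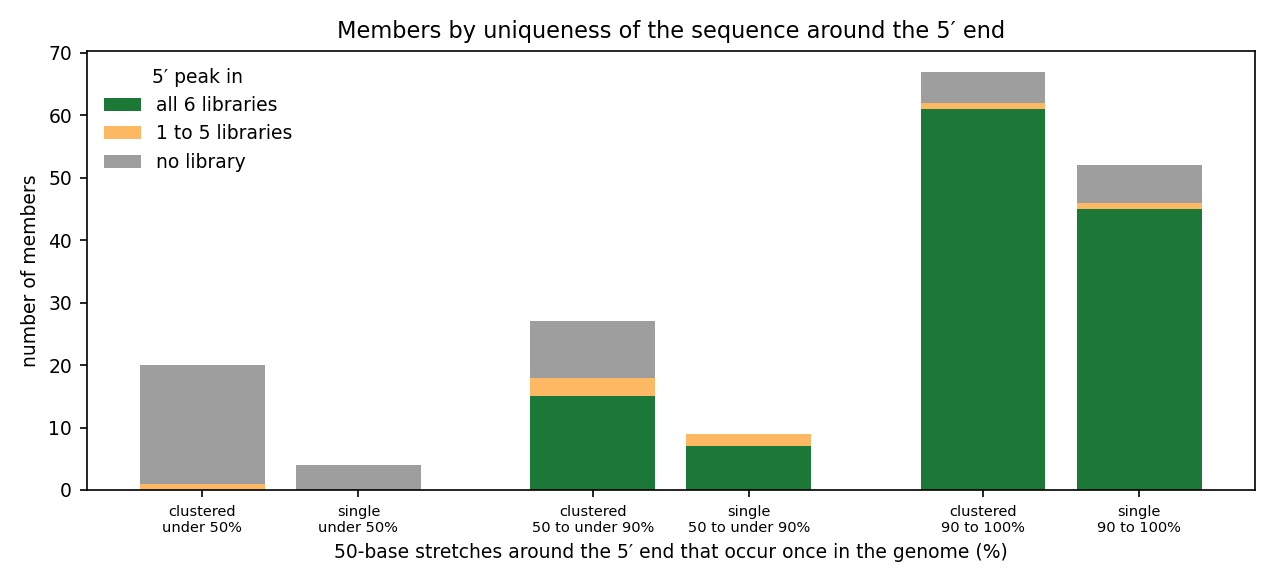
Number of members by the share of 50-base stretches around the 5′ end that occur once in the genome (3 classes, clustered and single members apart), with the part that had a 5′ peak in all 6, in 1 to 5 and in no library. None of the 24 members under 50% had a peak in all 6 libraries, and 106 of the 119 members at 90% or more did.

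Promoter sequence was set against peaks at the listed start that it belongs to. There 116 of 158 members (73.4%, background 68.8% of all genes with a listed promoter) had a peak within 1 kb in all 6 libraries and 35 (22.2%, background 27.5%) in none. Of the 35 without a peak, 11 had a promoter more than 90% identical to that of another member, against 2 of the 116, namely Zfp758 and Zfp943. Around the 5′ ends of this pair 80.4% and 80.1% of stretches were unique. CpG content differed too. The median ratio of observed to expected CpG was 0.304 at listed starts with no peak and 0.671 at those with one in all 6 libraries. Over all protein-coding genes the medians were 0.145 and 0.743, further apart. Of the 43 members without a 5′ peak whose unique share was known, 23 had under 50% unique stretches. Whether CpG content goes with peaks apart from uniqueness was not tested.

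The choice of 5′ end mattered for a few genes. RefSeq's outermost 5′ end was used, and 6 of the 44 members without a peak there (Zfp804a, Zfp787, Zfp790, Zfp791, Zfp708 and Zfp759) had a peak within 1 kb of a separately listed start in all 6 libraries. The listed start of Zfp804a, whose human counterpart is a schizophrenia risk gene, lay 3529 bp from the outermost end. With Zfp729b, Zfp808, Zfp616, Zfp976, Zfp600, Zfp994 and Zfp932, the genes Zfp759, Zfp708 and Zfp791 were the 10 members without a 5′ peak that had the most zinc finger matches, from 30 in Zfp729b to 15 in Zfp791 and Zfp932. Around the 5′ end of Zfp616 98.2% of stretches were unique, and no peak lay within 15752 bp of it in any library.

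Of the 8 members with a peak in some libraries, 6 are described and most of their peaks were narrow. Zfp648 had a peak of 205 bp in S7KO replicate 2 and 273 bp in WT replicate 4. Zfp738 had one of 278 and 421 bp in S7KO replicates 1 and 4 and none in WT. Zfp937 had one of 219 and 223 bp in S7KO replicates 1 and 4 and of 206 bp in WT replicate 4. The peaks of Zfp935, in 2 libraries of each genotype, were 204 to 279 bp wide. Zfp959 had peaks of 841 bp in S7KO replicate 4 and 837 bp in WT replicate 4. Zfp874b was of another kind, with peaks of 1963 to 2083 bp in 5 libraries and none within the window in S7KO replicate 4. Within 1 kb of its listed start it had a peak in all 6 libraries.

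The width of the 5′ peak was compared next, over the 130 members with one in all 6 libraries. The median was 1112.5 to 1213 bp in single libraries, below that of all 14613 such protein-coding genes (1325 to 1457 bp). Clustered members were narrower (1067 to 1167 bp, n = 77) than single ones (1324 to 1486 bp, n = 53) in each library, with a gap of -319 to -257 bp, and single members were close to the average gene. The peak reached a median of 402 bp upstream and 747 bp downstream of the 5′ end, and further downstream at 102 of 130 members. These reaches are not given here for other genes, so they are not read as particular to the members. The 27 members whose 5′ end lay within 1 kb of another gene's had medians of 1267 to 1424 bp, and the other 103 had 1080 to 1202 bp.

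Widths differed far more between genes than between libraries. Zfp710 had the widest 5′ peak, at 3544, 3685 and 3509 bp in S7KO replicates 1, 2 and 4 and 3487, 3219 and 3414 bp in WT replicates 1, 2 and 4. It was followed by Zfp827, a protein known at telomeres, with a mean of 3227 bp over the 6 libraries, and by Zfp651 (3145 bp), the transcriptional corepressor Zfp703 (3010 bp), Zfp609 (2668 bp) and Zfp608 (2524 bp). These 6 were all single genes. The narrowest belonged to Zfp936 (446 bp), Zfp960 (421 bp), Zfp996 (328 bp) and Zfp951 (277 bp), whose 5′ ends were 63.6 to 89.4% unique. Within a member the widest library was a median of 1.14 times the narrowest, and the ratio was above 2 at 6 members. This ratio was not set against that of other genes.

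Apart from Zfp804a, the members with a known function that were looked up had a 5′ peak in all 6 libraries. Zfp809 had a 5′ peak of 2053, 2022 and 2070 bp in S7KO replicates 1, 2 and 4 and of 2193, 1993 and 1987 bp in WT replicates 1, 2 and 4, wider than the median clustered member in each library. Zfp819 was narrower, at a mean of 1221 bp. Zfp638, known for silencing of unintegrated retroviral DNA, averaged 1738 bp, Zfp711, an X-linked gene, 1815 bp, and Zfp644 1558 bp. Zfp746 (PARIS), a repressor of the coactivator gene Ppargc1a, averaged 1680 bp and Zfp830 1298 bp. Zfp750, an epidermal differentiation factor, had 988 bp in WT replicate 1 and 1474 to 1679 bp in the other libraries. Except in Zfp819, the widths of these members overlapped between genotypes.

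S7KO libraries had a median width of 1196 ± 15.3 bp and WT libraries one of 1158.5 ± 47.8 bp (3 libraries each, ± SD), a difference of 37.7 bp that the spread covered (exact two-sided permutation p = 0.3, adjusted p = 0.933). The gap in width between clustered and single members came to -300.3 ± 20.1 bp for S7KO and -277 ± 30.4 bp for WT (3 libraries each, exact permutation p = 0.3, adjusted p = 0.933). The mean width was larger in S7KO at 83 of 130 members and in WT at 47, and larger in S7KO at 67.7% of all such genes. The median difference in mean width per gene was 16.8 bp at members and 24 bp over all such genes. Medians over all such genes were 1442, 1442 and 1426 bp in S7KO and 1457, 1325 and 1414 bp in WT replicates 1, 2 and 4. The difference is thus not particular to the members. WT replicate 2, the list with the fewest peaks, also had the narrowest median. The difference in median width was 14.7 bp without it and 62.4 bp without WT replicate 1 (exact permutation p = 0.1, the smallest that 3 against 2 libraries allow).

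The genotypes did not overlap at 12 members. At 9 of 130 (6.92%, background 6.86%) the 5′ peak was wider in every S7KO than in every WT library, and at 3 (2.31%, background 1.66%) it was wider in every WT library, shares close to those of all genes. No single gene can fall below an exact permutation p of 0.1, so these are descriptions. The counts rest on the library set, and fewer libraries overlap less by construction. The 9 became 26 without WT replicate 1 (background 19.4%), 21 without WT replicate 4 (background 15.4%) and 16 without S7KO replicate 4 (background 14.1%). These were 20%, 16.03% and 12.2% of the 130 or 131 members then open in all libraries. The 9 became 13 without S7KO replicate 1 (9.92%, background 12.4%), 11 without S7KO replicate 2 (8.46%, background 11.9%) and 13 without WT replicate 2 (10%, background 8.52%). The 3 became 12 without WT replicate 2 (9.23%, background 8.99%), 9 without S7KO replicate 4 (6.87%, background 3.86%) and 7 without WT replicate 4 (5.34%, background 3.65%). They numbered 6 without S7KO replicate 2 (4.62%, background 4.17%), 5 without WT replicate 1 (3.85%, background 2.97%) and 3 without S7KO replicate 1 (2.29%, background 4%). With replicates 1 and 4 alone 16 of 131 members (12.2%, background 13.9%) were wider throughout in S7KO and 20 (15.3%, background 16.3%) in WT. Among members wider in S7KO the largest difference was at Zfp831, with 1813, 1983 and 1907 bp in S7KO replicates 1, 2 and 4 against 1789, 486 and 534 bp in WT replicates 1, 2 and 4. WT replicate 1 was close to the S7KO libraries there. Zfp664 followed with 2295, 2165 and 2150 bp against 1764, 2112 and 1785 bp, then Zfp710 (3579 ± 93.2 against 3373 ± 139 bp, SD, n = 3 each) and Zfp729a (662 ± 52.2 against 568 ± 39.3 bp).

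Wider in WT were Zfp961, Zfp622 and Zfp612. Zfp961 had 1234, 968 and 1189 bp in S7KO replicates 1, 2 and 4 against 1426, 1368 and 1318 bp in WT replicates 1, 2 and 4. Zfp622, whose human counterpart works in maturation of the large ribosomal subunit, had 1507, 1488 and 1495 bp against 1617, 1548 and 1586 bp. Zfp622 thus had a small difference with little spread.

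**Figure D4:**
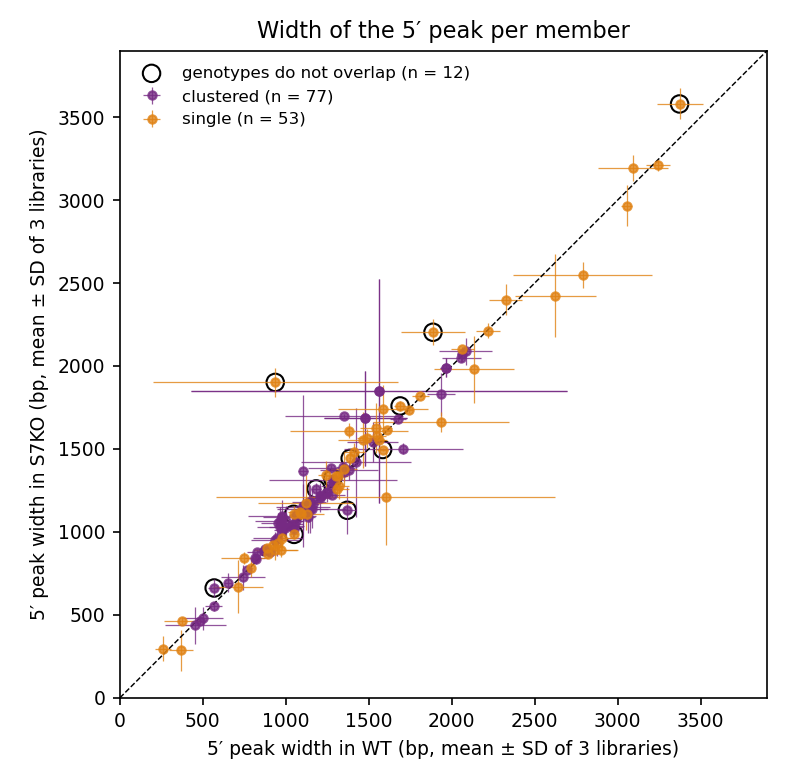
Width of the 5′ peak in bp, mean ± SD of 3 libraries, in WT (horizontal) and S7KO (vertical), for the 130 members with a 5′ peak in all 6 libraries; the dashed line marks equal widths. Purple points are clustered (77) and orange points single members (53), and rings mark the 12 members whose genotypes do not overlap, among them Zfp831, the single member farthest above the line.

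Peaks at the 3′ end were less frequent than at the average gene. A 3′ peak was present in all 6 libraries at 20 of 182 members (11.0%, background 18.7%), in some at 12 (6.59%, background 12.4%) and in none at 150 (82.4%, background 68.9%). Single libraries listed one at 21 to 31 members, and 36 of 212 Zfp genes below 600 (17.0%) had one in all 6. Clustered members had a 3′ peak at 8.62 to 12.1% in single libraries and single members at 16.7 to 25.8%. Among members with 90% or more unique stretches at the 3′ end the mean gap was -6.50 points, in place of -9.93 over all. S7KO libraries had a share of 15.02% ± 1.77 and WT libraries one of 13.7% ± 1.90 (3 libraries each, ± SD, exact permutation p = 0.6, adjusted p = 0.933), and the clustered-single gap was -10.5 ± 3.93 and -9.35 ± 1.13 points (exact permutation p = 0.8, adjusted p = 0.933).

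Of the 20 members, 18 had 3′ peaks with no known 5′ end of any gene within 1 kb, and 2 (Zfp628 and Zfp879) had peaks near the 5′ ends of Ssc5d and Zfp354c. The same split is not given here for all protein-coding genes, so it is not read as particular to the members. Zfp865 had the widest 3′ peak, with 3622, 2705 and 2415 bp in S7KO replicates 1, 2 and 4 and 3612, 2430 and 2364 bp in WT replicates 1, 2 and 4. Replicate 1 was the wide one in both genotypes. Zfp692 and Zfp672 meet at their 3′ ends and shared 1 peak with a mean of 1830 bp. Zfp740 (1813 bp), Zfp787 (1775 bp), Zfp804a (1631 bp), Zfp870 (1615 bp) and Zfp641 (1579 bp) came next. At the outermost ends Zfp787, Zfp804a and Zfp957 had a 3′ but no 5′ peak. Zfp787 and Zfp804a had a peak within 1 kb of their listed start in all 6 libraries. For Zfp957 the nearest peak in any library lay 1138 bp from the 5′ end, just outside the window.

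Over the 20 members the median 3′ width was 1237 to 1738.5 bp per library, above that of all 4000 such genes (985.5 to 1200 bp). Unlike at the 5′ end, clustered members were wider (1411.5 to 1931 bp, n = 10) than single ones (1159.5 to 1316 bp, n = 10) in each library. Genes are not replicates, so this was not tested. At the 3′ end S7KO libraries had a median width of 1521 ± 70.3 bp and WT libraries one of 1418 ± 278 bp (3 libraries each, ± SD, exact permutation p = 0.6, adjusted p = 0.933). The difference of 103 bp became 12.6 bp without WT replicate 4, 55.2 bp without WT replicate 2 and 263 bp without WT replicate 1 (exact permutation p = 0.1, again the smallest possible). Zfp870 had 2200, 2383 and 2176 bp in S7KO replicates 1, 2 and 4 and 2314, 319 and 295 bp in WT replicates 1, 2 and 4. As at the 5′ end of Zfp831, WT replicate 1 sided with S7KO, here within the S7KO range. The 3′ peak was wider in every S7KO library at 2 of 20 members (Zfp628 and Zfp710, background 7.17%) and wider in every WT library at 0 (background 1.32%).

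**Figure D5:**
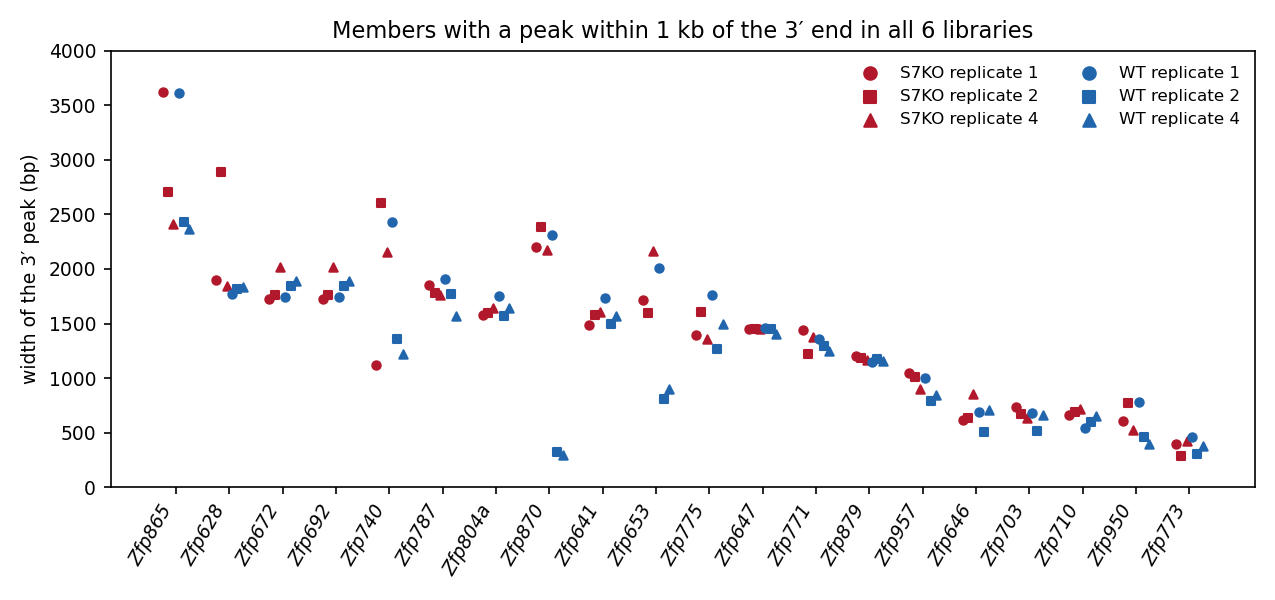
Width of the 3′ peak in bp for the 20 members with one in all 6 libraries, ordered by mean width; each point is 1 library, coloured by genotype and shaped by replicate number. Widths run from 3622 bp in Zfp865 to 289 bp in Zfp773, and at Zfp870 WT replicates 2 and 4 lie at 319 and 295 bp while the other 4 libraries lie between 2176 and 2383 bp.

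Genes for partners of KRAB proteins were looked at as a list. Of 17 corepressor genes, 14 had a 5′ peak in all 6 libraries (background 68.2%), among them Trim28 (mean 2469 bp) and the HP1 genes Cbx1, Cbx3 and Cbx5. Setdb1 varied between libraries of both genotypes, at 453, 1144 and 1055 bp in S7KO replicates 1, 2 and 4 and 440, 1030 and 454 bp in WT replicates 1, 2 and 4. At the outermost 5′ end Chd3 had a peak in 5 libraries and the maintenance methyltransferase gene Dnmt1 in 3. Fam208a (Tasor), a subunit of the HUSH silencing complex, had none there. At 0 of the 14 did widths separate the genotypes in either direction (backgrounds 6.86% wider in S7KO and 1.66% wider in WT). With 14 genes this count is not read as particular to them.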

How the data were processed

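The authors trimmed reads (Trim Galore 0.6.6), aligned them to mm10 (Bowtie2 2.4.4.1), kept uniquely mapped reads without duplicates and called broad peaks with MACS2 2.2.5 for each library, per the labels and the study's methods. Which fragments entered the calls could not be settled. The deposited lists give each peak's position, with the authors' display score, fold enrichment (a ratio of signal to background), −log10 p-value and −log10 q-value. Positions were the values compared. The −log10 q-value served to rank and filter peaks within a list in alternatives, with −log10 p-value and fold to break ties, and the score was not used. Read counts were not used here, so the depth is unknown and the differential test that the authors ran on reads was not repeated.

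Gene ends came from RefSeq (GRCm38.p6) and strand from the RefSeq promoter table for 158 members and from GENCODE for 24. When several peaks overlapped the window of 1000 bp on each side of an end, the nearest gave the width. Medians used the genes with a peak in all 6 libraries. The 2 non-coding genes with such symbols were left out. S7KO and WT values, 1 per library, were set against all 20 ways of assigning the libraries (exact permutation test, two-sided), with Benjamini-Hochberg adjustment over 7 tests. Wilson intervals were computed with scipy 1.17.1. Stretches of 50 bases, counted on both strands, came from GRCm39 windows around the gene of the same symbol, with no coordinate converted. Promoter identity was 100% minus the edit distance over 300 bases (edlib 1.3.9.post1). The scripts were tested on simulated data. The members, lists and tests were chosen with earlier results of these data known. Genes were named by rule: the widest and narrowest 5′ peaks, the members without one that had the most zinc finger matches, the widest 3′ peaks, the largest non-overlapping differences, the 3 largest clusters, members with a known function, and members open in some libraries. Other members of a count, the further clusters and Zfp616, Zfp942 and Zfp870 as examples were picked after their values were seen. Alternatives changed the window, peak filter, cluster distance, 5′ end, libraries and sequence uniqueness.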

Additional observations from a re-analysis of the deposited data

How the results depend on the processing

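Of 124 alternatives of the 7 tested differences between S7KO and WT, 102 kept the direction, 21 turned it and 1 gave 0. The exact permutation test cannot reach 0.05 with so few libraries, so its p-values say nothing about stability. Shares are differences in percentage points. With a window of 500 bp the 3′ share difference became -0.183, the clustered-single gap difference 1.22 at the 5′ end and 0.505 at the 3′ end, the mean 3′ gap -4.32, the mean width gap -260.4 bp, and 1 member had a peak in all S7KO and no WT library. With 3 kb the 5′ gap difference became 0.644 and the mean gaps -15.1 (5′) and -12.8 (3′). With −log10 q of at least 3 the 5′ gap difference was 1.08 and the mean 3′ gap -6.07. With the 105728 strongest peaks of each list the 5′ share difference was -1.10, the 3′ share difference -0.183, the gap differences 0.653 (5′) and 1.30 (3′), and the mean 3′ gap -6.68. With peak midpoints in the window the 3′ share difference was -0.183, the mean 3′ gap -5.14 and the mean width gap -249.8 bp. With clusters set at 100 kb the width gap difference was 15 bp, the mean 5′ gap -7.19 and the mean width gap -209.5 bp. At 500 kb the mean gaps were -22.5 (5′), -14.5 (3′) and -315.5 bp. With any numbered Zfp gene as neighbour the 5′ gap difference was 0.517, the mean 5′ gap -8.30 and the mean width gap -380.9 bp. Without short members and shared 5′ ends the mean gaps were -15.2 (5′) and -14.5 (3′). With replicates 1 and 4 the 3′ share difference was -0.824, the gap differences 0.431 (5′) and 1.08 (3′), 1 member had a peak in all S7KO and no WT library, and 16 and 20 members were wider throughout in S7KO and in WT (13.9% and 16.3% of all genes).

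Chosen after seeing the data, the use of any listed start gave a 5′ gap difference of 0.0697. With 90% or more unique stretches the 5′ share difference was -0.280, the mean 5′ gap 5.11 and the mean 3′ gap -6.50. Unless stated as construction, the cause of these moves was not tested.

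Leaving out 1 library at a time gave a 5′ share difference of 0 to 0.824, a 3′ share difference of 0.183 to 1.92, a 5′ median width difference of 14.7 to 62.4 bp and a 3′ one of 12.6 to 263 bp. Gap differences ran from -1.88 to 0.827 (5′), from -3.36 to 0.431 (3′) and from -40.8 to -13.1 bp (width), and mean gaps from -13.1 to -12.0, from -10.7 to -9.18 and from -297.5 to -284 bp. Between 0 and 1 member had a peak in all S7KO and no WT library, 11 to 26 were wider throughout in S7KO and 3 to 12 in WT. Over all genes these shares ran from 8.52 to 19.4% and from 2.97 to 8.99%. The lowest counts, 11 (without S7KO replicate 2) and 3 (without S7KO replicate 1), had backgrounds of 11.9% and 4%.

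The sample descriptions number the libraries otherwise than the titles, whose numbers were used here. Libraries with the same number deviated together only weakly over all protein-coding genes (correlations 0.0800, -0.0118 and 0.146). That cannot tell whether libraries of the same number shared a batch. Pairing them as a replicate block leaves the differences as they are (0.366 points in the 5′ share, 1.28 in the 3′ share, 37.7 bp in the 5′ and 103 bp in the 3′ median width, -0.218 and -1.16 points in the gaps and -23.3 bp in the width gap), with exact sign-flip p-values from 0.25, the smallest that 3 pairs allow, to 1. The lists give no depth, and peaks missed in shallower libraries cannot be told from closed sites.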
